A study of Rattus norvegicus with 11 samples.

Results

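The first 7 days of conversion of rat embryonic stem cells that had been grown on feeder cells were described from 2 arrays of the 11 in the series, the feeder array of day 7 and the feeder array of day 0. The values were log2 expression levels, and the change of a gene was its day 7 level minus its day 0 level, so that a change of 1 is a factor of 2. The study followed embryonic stem cells of the rat line DAc2 as they were turned into hypoblast stem cells, called cHypoSCs in the labels. RNA was hybridised to Affymetrix Rat Gene 1.0 ST arrays at days 0, 7, 17 and 32.

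The feeder arm had 1 array on each of the 4 days. Its day 0 cells, labelled rESC, were kept on a layer of mouse embryonic fibroblasts in N2B27 medium with 3 µM of the GSK3 inhibitor CHIR99021 and 0.5 µM of the MEK inhibitor PD0325901. Cells kept without feeders gave 1 array at day 0 and 2 arrays at each later day. Their day 0 culture grew on laminin in the same basal medium, with the GSK3 inhibitor at 3 µM, the MEK inhibitor at 2 µM and human BMP4 added at 5 ng/mL. Both arms were then moved to a maintenance medium for rat multipotent adult progenitor cells with 2% fetal bovine serum and the factors LIF, EGF and PDGF. All samples share the 1 cell line, and the labels give no passage numbers. Whether feeder cells were still present at day 7 or later is not stated. Below, the words on feeder cells and without feeder cells name the 2 arms by their starting culture, on every day. The arms also differed in the dose of MEK inhibitor, in BMP4 and in the growth surface before conversion, and the effects of these differences cannot be told apart.

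Embryonic stem cells held with inhibitors of GSK3 and MEK remain in the naive state of the preimplantation epiblast, in which MEK inhibition silences FGF-ERK signalling and GSK3 inhibition activates canonical Wnt signalling. The hypoblast, or primitive endoderm, is the sister lineage of the epiblast in the blastocyst. It is specified by FGF-ERK signalling through the transcription factors Gata6, Gata4 and Sox17, and the PDGF receptor Pdgfra marks its cells. The hypoblast goes on to line the yolk sac, where it lays down basement membrane and takes up proteins by endocytosis.

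Each change was judged against the spread of the 3 feeder-free pairs with limma, which assumes that the single feeder arrays vary as those pairs do. Of 14506 genes, 2160 passed at an adjusted p under 0.05 (limma, Benjamini-Hochberg), which is 14.9% of the genes tested. Of these, 1074 rose (7.40% of all genes) and 1086 fell (7.49%). The smallest change that passed was 0.44. Each of the 2160 changes exceeded the differences between replicate arrays of the same gene in all 3 pairs. Those pairs also set the spread in the test, so this adds no separate evidence for the calls. Changes of at least 1 passed for 345 genes upward and 230 downward. No label says that the 2 arrays of a feeder-free pair, described as biological replicates, came from separate cultures, and the p values may then measure technical spread only.

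Compared directly, array against array, the feeder change was larger than replicate differences and smaller than the feeder-free change over the same week. The 99th percentile of differences within the feeder-free pairs was 0.503, and 2090 genes (14.4%) differed by more than this between feeder day 7 and feeder day 0. Within the pairs, 205 genes at day 7, 134 at day 17 and 97 at day 32 did so. Between the feeder-free arrays of day 7 and that of day 0, 4150 and 4019 genes did, or 28.6% and 27.7%. In the feeder arm the following step, from day 7 to day 17, moved 3947 genes (27.2%) past the same size. The step from day 17 to day 32 moved 519 (3.6%). By this count the feeder arm differed in fewer genes between days 0 and 7 than between days 7 and 17.

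**Figure D1:**
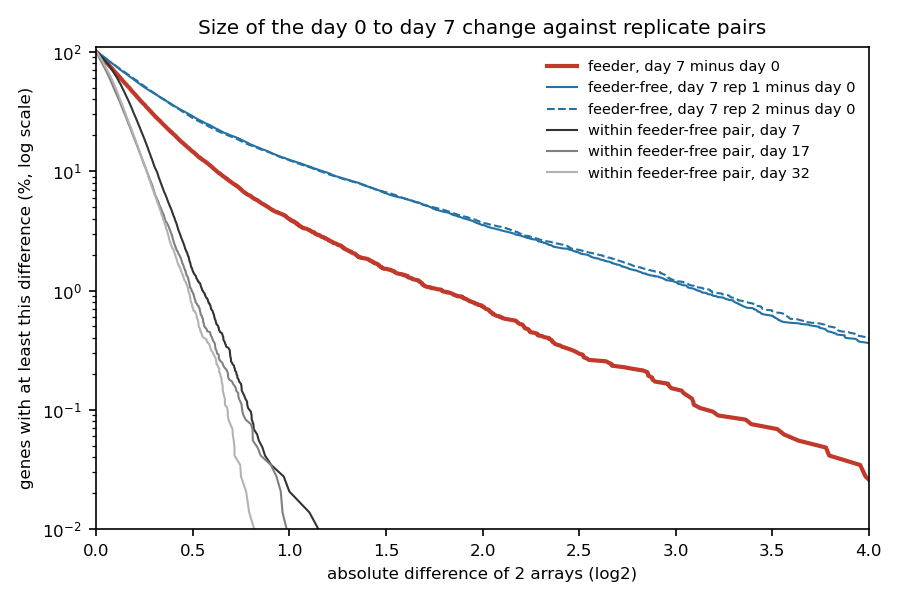
Share of the 14506 genes (vertical, log scale) whose absolute log2 difference between 2 arrays is at least the value on the horizontal axis, for feeder day 7 against day 0 (red), each feeder-free day 7 array against feeder-free day 0 (blue) and the 3 replicate pairs (grey). The red line lies between the grey and the blue lines, with 575 genes at 1 or more against 1805 and 1792 in the feeder-free arm and at most 2 within a pair.

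The feeder-free change of the same week was called for 5348 genes (36.9%) with limma. Of the genes called on feeder cells, 1235 were called in the same direction in the feeder-free arm, 269 in the opposite direction and 656 not at all there. Whether the change itself differed between the arms was tested as an interaction, and 3193 genes (22.0%) passed, 1575 with the higher change on feeder cells and 1618 with the lower. When each array was centred on the median of the named genes, that split became 2169 higher and 1477 lower. The 2 arms share no array, and the medians over all genes were -0.02 on feeder cells and -0.05 without them.

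Most pluripotency genes of the naive epiblast showed small changes on feeder cells during this week. Of 14 measured, 1 rose, 2 fell and 11 did not pass the test, with a median change of -0.08 against -0.02 for all genes, and in the feeder-free arm the median of the same genes was -1.80. Nanog, a core pluripotency factor, was at 13.35 at day 0, 13.29 at day 7, 7.82 at day 17 and 7.13 at day 32 in the feeder arm. Its feeder-free values were 13.92 at day 0 and 10.14 and 10.26 at day 7. The feeder level of Nanog at day 7 therefore lay far above both feeder-free arrays of that day, and the 2 changes, -0.06 ± 0.22 (SE) and -3.72, differed by 3.66 (limma, adjusted p = 9.56e-07).

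Sox2, its partner in the pluripotency network, stood at 12.97, 12.73, 9.82 and 9.77 on days 0, 7, 17 and 32 on feeder cells, against 13.68 and then 10.73 and 10.90 at days 0 and 7 without them. The changes of -0.24 ± 0.14 and -2.87 differed by 2.62 (limma, adjusted p = 3.58e-07). Pou5f1, which encodes Oct4, was at 14.07 and 13.94 on feeder cells and at 14.93, 13.57 and 13.72 in the feeder-free arrays of days 0 and 7, a difference of the changes of 1.16 (adjusted p = 0.000607). Other members of the list showed the same arrangement. Changes of Tfcp2l1, Klf2, Gdf3, Nr5a2, Esrrb and Dppa3 on feeder cells lay between -0.20 and 0.37, none passed, and those without feeder cells lay between -2.97 and -1.71, with the difference called for each. The arms also started from different levels. At day 0 the feeder array was lower for 12 of the 14 genes and higher for 2, with a median difference of -0.79. Nr5a2 started at 8.31 on feeder cells, close to the background bound given below, against 9.70 without them. A fall of Nr5a2 on feeder cells could therefore hardly have shown. At day 7 the median level of the list was 12.83 on feeder cells and 11.18 and 11.33 without them. Of all 14506 genes, 1575 had a called difference with the higher change on feeder cells and 1618 with the lower. In this list the change was higher on feeder cells for 11 of the 14 genes and lower for 1.

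That 1 gene was Klf5, a Krüppel-like factor of naive cells. Klf5 fell from 14.41 to 13.39 on feeder cells (-1.02 ± 0.14, limma, adjusted p = 0.000169) and stood at 14.52 and 14.74 on the later days, so that the day 7 array was the lowest of the 4. Its feeder-free values were 14.38 at day 0 and 14.51 and 14.61 at day 7. A second, dimmer row of Klf5 gave -0.56. Tbx3 also fell, by 0.50, and Fgf4, the FGF that epiblast cells make, rose by 0.53 against a feeder-free change of -2.53.

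Genes of the primed epiblast, the state after implantation, gave 2 rises and 1 fall among 9, with a median of -0.08. The rises were Lefty1 and Lefty2, secreted inhibitors and targets of Nodal signalling. Lefty2 went from 8.45 at day 0 to 11.85 at day 7 and was back at 7.78 and 7.53 at days 17 and 32. Its rise of 3.39 ± 0.15 (limma, adjusted p = 8.82e-09) exceeded the feeder-free change of 1.56 by 1.83, and all 10 other arrays lay between 7.48 and 9.13. Lefty1 went from 13.32 to 14.57, then to 9.15 and 8.78. Nodal itself had a change of -0.24 that did not pass, against -2.50 without feeder cells, and the difference was called. Fgf5, a marker of the primed state, had a change of -0.26 that did not pass.

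At the same time the regulators of the hypoblast rose. Of 10 measured, 6 rose, 1 fell and 3 did not pass, with a median change of 0.87 on feeder cells and 2.71 without them. For 8 of the 10 the change was smaller on feeder cells by the test of the difference, and for none was it larger. Gata4, a zinc finger factor of the hypoblast, was at 8.10 at day 0, 11.20 at day 7, 14.37 at day 17 and 14.38 at day 32, and at 9.79, 13.86 and 14.02 in the feeder-free arrays of days 0 and 7. Its day 0 level lay at the bound of 8.10 below which 95% of olfactory and vomeronasal receptor genes fell, which was taken as background. Gata4 rose by 3.09 ± 0.14, or 8.52-fold (limma, adjusted p = 9.88e-09), and its change was 1.06 below the feeder-free one of 4.15 (difference -1.06, adjusted p = 0.000924).

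Gata6, which acts at the head of the hypoblast program, was at 9.11, 11.25, 14.47 and 14.51 on the 4 days and rose by 2.14 ± 0.15 in the first week (adjusted p = 2.88e-07, limma). Sox17, an endoderm factor of the SOX family, was at 9.87, 11.65, 14.80 and 14.89 and rose by 1.78 ± 0.15 (adjusted p = 2.19e-06). Pdgfra, the receptor for the PDGF in the conversion medium, was at 8.49, 10.04, 13.30 and 13.73 and rose by 1.54 ± 0.14 (adjusted p = 4.68e-06). In each of these genes the day 7 value lay between those of day 0 and day 17. The feeder-free changes were 4.11, 3.52 and 5.03, and the differences were -1.98, -1.74 and -3.48. Pdgfra thus had the widest gap between the arms among the 4 factors named here, and its day 7 feeder value of 10.04 compares with 13.48 and 13.59 in the feeder-free pair.

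Other hypoblast regulators split. Foxq1, a forkhead factor, rose by 1.01 ± 0.14 (limma, adjusted p = 0.000243), against 0.99 without feeder cells, a difference of 0.02 ± 0.19. Fgfr2, an FGF receptor, rose by 0.72. Foxa2 and Sox7, factors of the endoderm, had changes of 0.16 and -0.09 that did not pass, against 2.68 and 2.74 without feeder cells, and both differences were called. Hnf4a, a nuclear receptor of visceral endoderm, fell by 0.75 on feeder cells (-0.75 ± 0.15, adjusted p = 0.00366) while its feeder-free change was 0.56. The day 7 sample is titled as cHypoSCs, and Nanog and Sox2 near their day 0 levels and raised Gata4, Gata6 and Sox17 were measured on that same array. In bulk RNA, fewer cells of a type and less RNA per cell cannot be told apart.

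**Figure D2:**
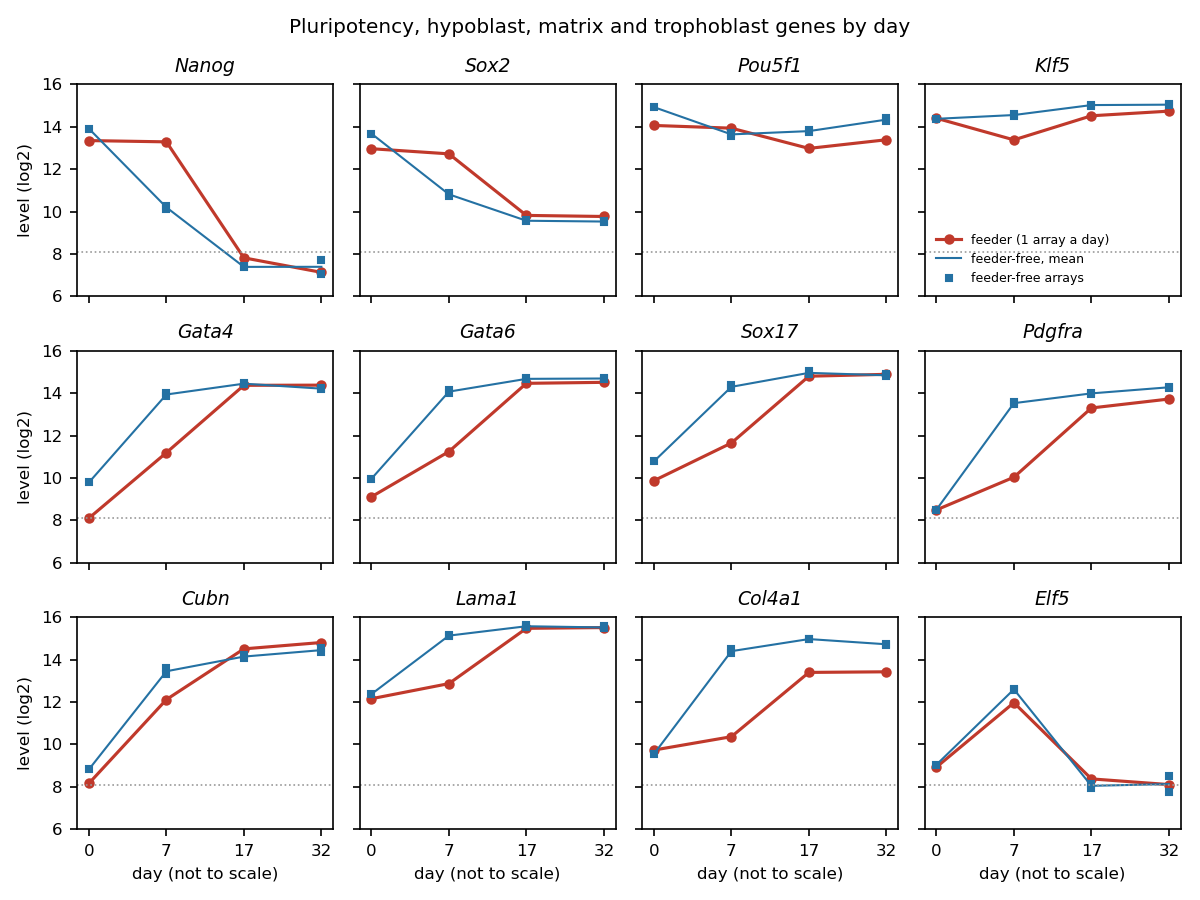
Log2 level (vertical) of 12 genes on days 0, 7, 17 and 32 (horizontal, not to scale); red circles are the single feeder arrays, blue squares the feeder-free arrays and the blue line their mean, and the dotted line is the background bound of 8.10. On feeder cells Nanog stays at 13.29 at day 7 while Gata4 reaches 11.20, whereas both feeder-free arrays of day 7 have Nanog near 10 and Gata4 near 14.

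Among genes of yolk sac endoderm, Cubn, Dab2 and Lrp2, which act in protein uptake, had larger rises in the first week than the genes of basement membrane. The list of matrix and uptake genes had 9 rises and 0 falls among 14, with a median of 0.61 on feeder cells and 2.66 without them. The change was smaller on feeder cells for 13 of the 14 and larger for none. Cubn encodes cubilin, an endocytic receptor of the visceral endoderm. It was at 8.16, 12.11, 14.51 and 14.81 in the feeder arm and at 8.82, 13.31 and 13.59 in the feeder-free arrays of days 0 and 7. It rose 15.5-fold (3.96 ± 0.17, limma, adjusted p = 6.3e-09), and the feeder-free change of 4.63 was 0.68 higher.

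Srgn, which encodes the secretory proteoglycan serglycin, went from 8.08 to 11.60 and then to 14.59 and 14.58, a rise of 3.53 ± 0.14 (adjusted p = 3.79e-09) from a day 0 level just under the background bound. Dab2, an adaptor for endocytic receptors, rose by 1.61, and Lrp2, the receptor megalin that acts with cubilin, by 1.41. Amn, which carries cubilin to the cell surface, had a change of 0.42 that did not pass.

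The matrix genes moved by less than 1 on feeder cells. Col4a1, a collagen chain of basement membrane, was at 9.73, 10.36, 13.40 and 13.42 in the feeder arm and at 9.54, 14.31 and 14.49 in the feeder-free arrays of days 0 and 7. Its rise of 0.63 ± 0.15 (adjusted p = 0.00918) stood against 4.86, a difference of -4.22 (limma, adjusted p = 6.99e-09). Serpinh1, the collagen chaperone HSP47, rose by 0.81 against 4.98. Its day 0 level was 12.23 on feeder cells and 9.82 without them, so this gene also started from different levels. Lama1 and Lamc1, laminin chains, rose by 0.71 and 0.53 against 2.76 and 2.53, and the prolyl hydroxylase gene P4ha2 rose by 0.58 against 3.42. Sparc had a change of -0.42 that did not pass, against 2.23. By day 32 the median of the list was 3.09 above its day 0 level in the feeder arm.

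**Figure D3:**
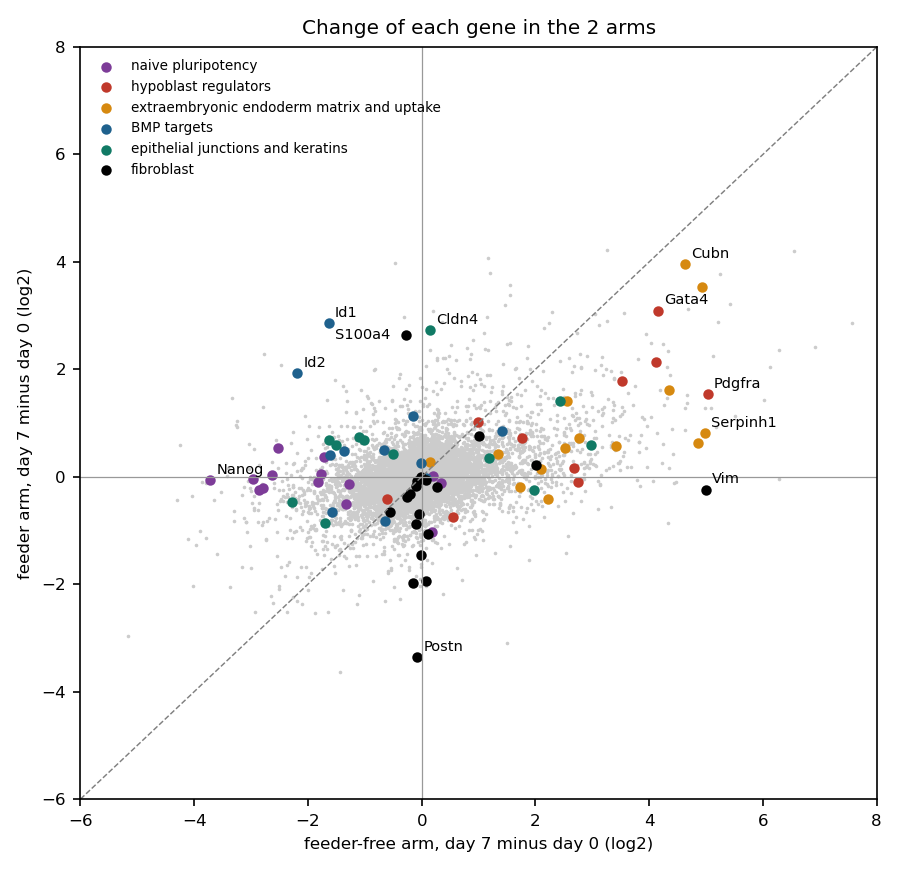
Day 7 minus day 0 in the feeder arm (vertical, log2) against the same in the feeder-free arm (horizontal, log2) for all 14506 genes (grey) and 6 gene lists (colours), with the dashed line where both changes are equal. Most naive pluripotency genes lie near 0 vertically and to the left, with Klf5 lower at -1.02. Most hypoblast, matrix and uptake genes lie below the dashed line on the right, with Foxq1, Nid2 and Fgfr1 just above it, and Id1 and Id2 lie in the upper left with changes of 2.86 and 1.93 against -1.63 and -2.19.

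Of 14 genes of differentiated visceral endoderm, 2 rose and 0 fell, with a median of 0.03, where 7.40% of all genes rose. The rises were those of Cited1, a transcriptional coregulator (1.18), and Ihh, the ligand Indian hedgehog (0.74). Afp, Ttr, Apoa1 and Apob, which encode serum proteins made by mature yolk sac, had changes between -0.15 and 0.12 that did not pass, and 6 of the 14 genes were under the background bound on each of the 2 days. Of 9 parietal genes, 4 rose and 2 fell, with a median of 0.42. The rises were those of Tm4sf1, the largest at 1.845, Pth1r, Fst (0.60) and Plat (0.48). The falls were those of Krt19 (-0.86) and Lgals1 (-0.55). Pth1r, the receptor for parathyroid hormone related peptide, rose by 0.93 against 5.18 without feeder cells, and Thbd, which encodes thrombomodulin, had a change of 0.42 that did not pass, against 4.42.

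Most trophoblast genes rose in the first week. Of 10 measured, 6 rose, 1 fell and 3 did not pass, with a median of 0.99 on feeder cells and 2.23 without them. By day 32 the feeder median was 0.16 above day 0. Elf5, a factor of trophoblast stem cells, was at 8.92, 11.97, 8.37 and 8.10 on the 4 days, so that day 7 stood above the other feeder days. Its rise of 3.04 ± 0.26 (limma, adjusted p = 2.42e-06) stood against 3.56 without feeder cells, and the difference of -0.52 ± 0.34 did not pass (adjusted p = 0.357). Plet1, a surface protein of trophoblast and endoderm, rose by 2.48. Hand1, a factor of trophoblast giant cells, rose by 2.07, and Plac1, a placental gene, by 2.05 from a level of 6.85 that was under the background bound. Gata3 rose by 1.30 against 3.52.

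Cdx2, which specifies trophectoderm, went the other way. It was at 13.13 at day 0, 9.50 at day 7, 8.56 at day 17 and 8.81 at day 32 on feeder cells, a fall of 12.4-fold (-3.64 ± 0.14, adjusted p = 3.78e-09). The feeder-free values were 11.14 at day 0 and 9.70 and 9.72 at day 7, so the arms differed at day 0 and lay close together at day 7, and the falls differed by -2.20 (limma, adjusted p = 1.43e-06).

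Cga and Prl2a1, which belong to none of the lists, were among the 12 largest rises. Cga encodes the alpha subunit shared by the glycoprotein hormones. It was at 8.13 at day 0, 12.11 at day 7, 8.35 at day 17 and 7.89 at day 32, and none of the 7 feeder-free arrays exceeded 9.18. Its rise of 3.98 ± 0.19 (limma, adjusted p = 9.88e-09) differed from the feeder-free change of -0.47 by 4.45. Prl2a1, a member of the placental prolactin family, was at 6.44, 10.65, 6.71 and 6.55 on feeder cells and at 6.51, 12.91 and 13.19 in the feeder-free arrays of days 0 and 7. Both arms therefore had Prl2a1 raised at day 7, by 4.21 and 6.54. Its day 0 levels were under the background bound, where the array compresses differences.

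Genes of mesendoderm and mesoderm gave 0 rises and 0 falls among 7. The 2 with the largest changes, the VEGF receptor gene Kdr (0.39) and the mesendoderm factor gene Mixl1 (0.35), did not pass (limma, adjusted p = 0.122 and 0.13). Of 7 neuroectoderm genes, 0 rose and 3 fell, namely the neuronal tubulin Tubb3 (-1.87), Zic1 (-0.99) and Msi1 (-0.51). The fall of Tubb3 was matched by -2.20 without feeder cells, a difference of 0.33 ± 0.18 that did not pass.

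Signalling genes were examined next, since the starting media are described by their inhibitors and the conversion medium by its growth factors, LIF and serum. Of 20 targets of ERK, 10 rose and 3 fell, with a median of 0.63 on feeder cells and 1.35 without them. Egr1, an immediate early zinc finger gene, was at 9.57, 12.34, 10.79 and 10.82 on the 4 days and at 9.24, 11.26 and 11.52 in the feeder-free arrays of days 0 and 7. It rose 6.86-fold on feeder cells (2.78 ± 0.16, limma, adjusted p = 6.62e-08), and its day 7 level there was above both feeder-free arrays. Phlda1 rose by 2.01, Ier3 by 1.53, Myc by 1.41 and Fos by 1.35. The phosphatase genes Dusp4 and Dusp5, which feed back on ERK, rose by 1.07 and 0.81, and Dusp6 had a change of 0.49 that did not pass, against 1.95 without feeder cells.

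Etv4, Spry1 and Spred1 fell. Etv4, an ETS factor gene, fell from 11.94 to 10.02 on feeder cells (-1.92 ± 0.17, adjusted p = 2.98e-06) and was at 8.44 at day 0 and 9.32 and 8.98 at day 7 without them, so that the change differed by -2.62. Etv5, a close relative, had a change of -0.47 that did not pass, against -2.32 without feeder cells. Spry1 and Spred1, inhibitors of the pathway, each fell by 0.50 against feeder-free changes of 1.19 and 0.59, while Spry4 rose by 1.01. Spred1 did not pass when either feeder-free array of day 7 was left out. At day 0 the feeder array was above the feeder-free one for 15 of the 20 ERK targets, Etv4, Spry1 and Spry4 among them, and below it for 5, among them Myc and Phlda1.

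The promoters of ERK targets are shown because many immediate early genes carry serum response elements. Serum response factor binds the CArG box, and the 250 bases before the start sites of Egr1 and Dusp5 each hold 2 such boxes, written in capitals. The sequences are from RefSeq, build GRCr8, on the plus strand at chr18:26736828-26737077 and chr1:262543524-262543773.
Egr1: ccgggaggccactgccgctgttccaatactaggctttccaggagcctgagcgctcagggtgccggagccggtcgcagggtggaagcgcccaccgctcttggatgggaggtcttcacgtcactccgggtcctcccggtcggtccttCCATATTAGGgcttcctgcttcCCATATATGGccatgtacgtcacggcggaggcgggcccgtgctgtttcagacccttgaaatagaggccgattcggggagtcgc
Dusp5: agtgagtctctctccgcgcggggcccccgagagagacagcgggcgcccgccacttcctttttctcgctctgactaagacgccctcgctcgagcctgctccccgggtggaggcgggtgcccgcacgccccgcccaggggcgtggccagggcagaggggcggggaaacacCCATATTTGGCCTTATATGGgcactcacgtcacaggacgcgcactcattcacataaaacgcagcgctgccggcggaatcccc
The CArG boxes lie from -105 to -96 and from -83 to -74 before the start site in Egr1, and from -82 to -73 and from -72 to -63 in Dusp5, where they abut. Both strands were searched in the 300 bases around each start site. Of 33469 rat promoters, 1.64% held a CArG box, and so did 2 of the 14 ERK targets with a promoter sequence. A match describes the letters and not binding.

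The canonical Wnt targets fell, with 0 rises and 6 falls among 8 and a median of -0.68 on feeder cells and -0.42 without them. The change was higher on feeder cells, a smaller fall, for 2 of the 8, Axin2 and Lef1, and lower for 1, Nkd1. Lgr5 and Notum were under the background bound on both days. Axin2, a feedback inhibitor that reports beta-catenin activity, was at 11.39, 9.69, 9.03 and 9.44 on the 4 days and at 12.43, 9.40 and 9.46 in the feeder-free arrays of days 0 and 7. It fell 3.24-fold (-1.70 ± 0.14, limma, adjusted p = 1.5e-06) against -3.00 without feeder cells, where it had started higher. Tnfrsf19, a receptor gene of the TNF family, fell from 11.71 to 9.19, a change of -2.52 against -2.37. Rnf43, a membrane E3 ligase that removes Wnt receptors, fell by 0.90, and the factor genes Tcf7 and Lef1 by 0.75 and 0.62. The Wnt feedback gene Nkd1 fell by 0.58. Lef1 was at 13.10, 12.48, 8.85 and 8.72 on the 4 days, so most of its decline in the feeder arm came after day 7, and its feeder-free change was -2.53.

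TCF and LEF factors bind the letters CTTTGA or their reverse complement. The 250 bases before the start of Axin2, on the plus strand at chr10:94398535-94398784 (RefSeq, GRCr8), hold this run at positions -232 to -227 and -132 to -127, in capitals.
Axin2: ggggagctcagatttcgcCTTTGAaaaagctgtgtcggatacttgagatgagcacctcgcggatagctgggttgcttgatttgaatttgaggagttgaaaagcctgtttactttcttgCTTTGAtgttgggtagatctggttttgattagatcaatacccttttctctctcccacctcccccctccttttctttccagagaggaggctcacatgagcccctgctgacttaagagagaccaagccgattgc
It was found on either strand in 16.1% of all promoters and in 3 of the 6 Wnt targets with a sequence, and it was not among the letters of the Tnfrsf19 window.

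JAK-STAT targets, which respond to LIF, gave 5 rises and 1 fall among 12, with medians of 0.36 and 0.79. Socs3, the feedback inhibitor of the LIF receptor complex, was at 9.85, 12.35, 12.72 and 13.02 on feeder cells and at 9.18, 13.11 and 13.30 in the feeder-free arrays of days 0 and 7. The rise of 2.50 ± 0.15 (limma, adjusted p = 7.85e-08) brought Socs3 near its later feeder levels within the first week. Junb rose by 1.56, Socs1 by 1.34 and Socs2 by 1.18, and Il6st, the shared receptor chain gp130, by 0.52. Socs2 differed from its feeder-free change of -0.25 by 1.43. Pim1, a kinase gene, fell by 0.61 against -2.21, and Osmr, the oncostatin M receptor, had a change of 0.38 that did not pass, against 3.54.

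STAT factors bind TTCNNNGAA, which occurred once before the start of Socs1, from -196 to -188, on the plus strand at chr10:5389324-5389573 (RefSeq, GRCr8).
Socs1: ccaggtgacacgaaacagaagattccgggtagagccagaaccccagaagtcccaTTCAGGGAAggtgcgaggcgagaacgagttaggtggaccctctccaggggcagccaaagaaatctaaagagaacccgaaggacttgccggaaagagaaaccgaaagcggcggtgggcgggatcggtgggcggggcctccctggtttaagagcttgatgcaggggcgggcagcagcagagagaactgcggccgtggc
This motif was in 8.87% of all promoters and in 2 of the 11 JAK-STAT targets with a sequence, namely Socs1 and Cish. Cish held 4 matches before its start, and its change of 0.27 on feeder cells did not pass, against 1.52 without them. No match in the window before Socs3 says only that these letters are not there.

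Among BMP targets, Id1 and Id2 rose on feeder cells and fell without them. Of 11 measured, 4 rose and 2 fell on feeder cells, with a median of 0.49 there and -0.66 without feeder cells, and the change was higher on feeder cells for 7 and lower for 0. Id1, an inhibitor of differentiation that SMAD factors activate directly, was at 9.33 at day 0, 12.19 at day 7, 11.32 at day 17 and 10.89 at day 32. Its feeder-free values were 12.93 at day 0, with BMP4 in the medium, and 11.30 in both arrays of day 7. Id1 rose 7.25-fold on feeder cells (2.86 ± 0.14, adjusted p = 1.15e-08), the feeder-free change was -1.63, and the difference was 4.49 ± 0.18 (limma, adjusted p = 3.67e-09).

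Id2 rose from 10.64 to 12.57 on feeder cells and was at 12.43 and then 10.09 and 10.38 without them, which gave changes of 1.93 and -2.19. Smad6, an inhibitory SMAD, rose by 1.14 against -0.15. Bambi, a decoy receptor, and Smad7 had changes of 0.41 and 0.51 that did not pass, against -1.61 and -0.66, with both differences called. Id4 rose by 0.85 on feeder cells, with a feeder-free change of 1.41. Id3 fell by 0.65 against -1.58, and Msx1 fell by 0.83 against -0.64. At day 0 the feeder array was below the feeder-free one for 8 of the 11 genes and above it for 3, Id3 and Msx1 among them, compared with 8404 lower and 6100 higher of all 14506 genes.

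Targets of serum response factor and YAP rose, with 6 rises and 0 falls among 12 and medians of 0.40 and 0.95. Ccn1 and Ccn2, matricellular genes driven by YAP, rose by 2.19 and 1.61, and Amotl2, a YAP feedback gene, by 1.16. Ccn1 was at 11.72, 13.91, 14.08 and 13.84 on feeder cells, so that its day 7 level was near those of the later days. Acta2 and Actb had changes of -0.06 and -0.03 that did not pass. Tpm1, Tagln and Cnn1, which encode proteins of the contractile cytoskeleton, rose by 0.76, 0.75 and 0.50.

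**Figure D4:**
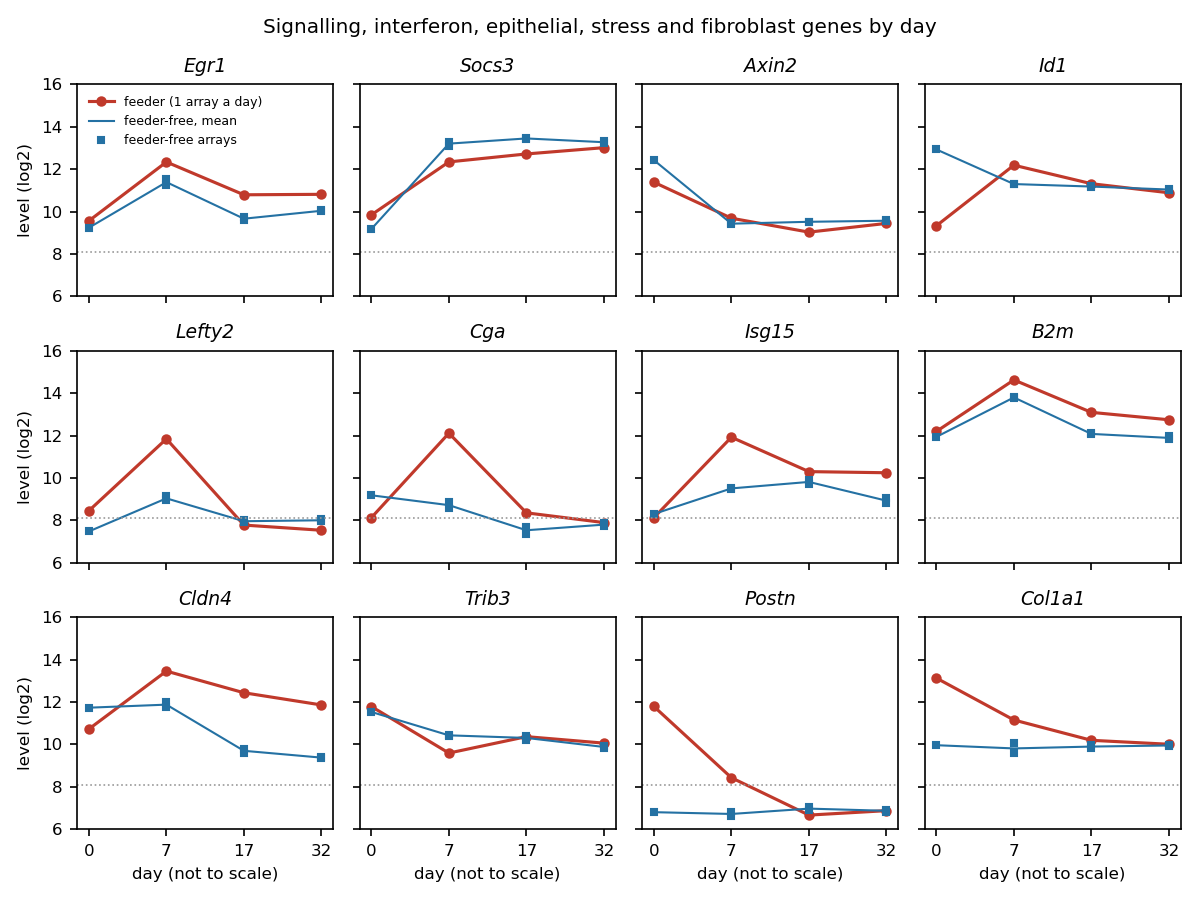
Log2 level (vertical) of 12 genes on days 0, 7, 17 and 32 (horizontal, not to scale), with red circles for the single feeder arrays, blue squares for the feeder-free arrays, a blue line for their mean and a dotted line for the background bound of 8.10. Lefty2, Cga and Isg15 peak at day 7 in the feeder arm, at 11.85, 12.11 and 11.92, Id1 runs in opposite directions in the arms, and Postn and Col1a1 start high only on feeder cells.

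Genes of epithelial junctions rose on feeder cells while most of them had negative changes without feeder cells. Of 12 measured, 7 rose and 1 fell, with a median of 0.59 on feeder cells and -0.75 without them, and the change was higher on feeder cells for 8 and lower for 4. Cldn4, a tight junction claudin, was at 10.72, 13.46, 12.43 and 11.86 and rose by 2.73 ± 0.16 (limma, adjusted p = 7.57e-08) against 0.14. Cdh1, which encodes E-cadherin, was at 12.96 and 13.64 at days 0 and 7 on feeder cells and at 13.62, 11.88 and 12.09 without them. Its changes of 0.68 and -1.64 had opposite signs and differed by 2.32 (adjusted p = 1.45e-06).

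Epcam, Ocln and Cldn7, which encode further adhesion and junction proteins, did the same, with rises of 0.59, 0.68 and 0.75 against -1.51, -1.01 and -1.10. These genes also started from different levels, with feeder minus feeder-free values at day 0 of -1.57, -1.15 and -0.94. Of the 12 genes of the list, 7 were lower on the feeder array at day 0 and 5 higher. Cldn6, another claudin, rose in both arms, by 1.41 and 2.43. The keratin genes differed among themselves. Krt8 rose by 0.59 against 2.97, Krt18 had a change of -0.25 that did not pass against 1.97, and Krt19 fell by 0.86 against -1.70.

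A part of the interferon response was raised at day 7. Of 16 genes of interferon response and antigen presentation, 6 rose and 1 fell, with a median of 0.29, which became 0.82 when the dimmest 25% of genes were left out. Isg15, a ubiquitin-like protein induced by interferon, was at 8.13, 11.92, 10.30 and 10.25 on feeder cells and at 8.30, 9.49 and 9.53 in the feeder-free arrays of days 0 and 7. It rose 13.9-fold (3.80 ± 0.16, limma, adjusted p = 6.3e-09) against 1.21 (difference 2.59, adjusted p = 1.01e-06). B2m, the light chain of MHC class I, rose by 2.43 against 1.86. Mx2, an antiviral GTPase, rose by 2.01 against 0.44, and Stat2, a subunit of the interferon-activated complex ISGF3, by 0.82 against -0.13. Irf1 and Irf9 rose by 1.33 and 1.27 with no called difference between the arms.

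Other interferon genes did not follow. Ifit2, Ifit3, Irf7, Oas1a and Psmb8 had changes between -0.19 and 0.16, none of which passed, and 5 of the 16 genes were under the background bound at day 7. Tap1, the peptide transporter of antigen presentation, fell by 0.63 on feeder cells against 1.41 without them, a difference of -2.05.

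Most genes of the amino acid stress response fell. Of 12 genes 0 rose and 9 fell, with a median of -0.90 against -0.42 without feeder cells. Trib3, a pseudokinase induced by ATF4, was at 11.78, 9.59, 10.36 and 10.06 on the 4 days and at 11.53, 10.45 and 10.40 in the feeder-free arrays of days 0 and 7. It fell 4.58-fold (-2.20 ± 0.15, limma, adjusted p = 2.45e-07), and the feeder day 7 level was below both feeder-free arrays. Slc7a11, the cystine transporter, fell by 1.67 against -1.54. Atf5 and Ddit3, transcription factors of the same response, fell by 1.24 and 1.21, and the serine synthesis gene Phgdh fell by 0.99. Atf3 fell by 1.42 on feeder cells, from 11.03 to 9.61, while its feeder-free change was 2.54, so that the arms differed by -3.96 (adjusted p = 2.2e-08). It was at 13.17 and 12.51 on days 17 and 32 in the feeder arm.

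Members of the metabolic lists changed by less than 1 on feeder cells, apart from Pfkp. Of 16 genes of cholesterol synthesis and uptake, 0 rose and 4 fell, where 7.49% of all genes fell. Their medians were -0.36 on feeder cells and -0.65 without them, against -0.02 and -0.05 for all genes. Hsd17b7 and Dhcr7, enzymes of the late pathway, fell by 0.88 and 0.82, Fdft1 by 0.53 and Msmo1 by 0.46. Msmo1 did not pass when an array of the day 17 or day 32 pair was left out. The core of the sterol response element, TCACNCCAC, was in 1.12% of all promoters and in 0 of the 12 promoters of this list. Of 16 glycolysis genes 1 rose and 2 fell, where 7.40% of all genes rose and 7.49% fell. Pfkp, the platelet form of phosphofructokinase, rose by 1.12, Pdk1, which inhibits pyruvate dehydrogenase, fell by 0.86, and Pfkl fell by 0.52.

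Pdha1, which encodes a subunit of pyruvate dehydrogenase, fell more than any of these, from 13.83 to 11.31, and was at 12.06 and 12.15 later. Its change of -2.52 ± 0.14 (limma, adjusted p = 4.5e-08) stood against -1.64 in the feeder-free arm, and a second row of the gene gave -2.56.

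Germline and meiosis genes, several of which are active in naive cells, gave more falls than rises. Of 13, 2 rose, 6 fell and 5 did not pass, with a median of -0.57 on feeder cells and -1.46 without them, and the change was higher on feeder cells for 8 and lower for 0. Asz1, Dazl, Stag3 and Hormad1 fell by 1.53, 1.37, 1.16 and 1.06. Stag3, a meiotic cohesin, was at 12.28, 11.12, 8.29 and 8.09 on feeder cells, and its feeder-free change was -4.12. Sycp3, which encodes a protein of the synaptonemal complex, rose from 7.33, under the background bound, to 8.83 (1.51 ± 0.14, limma, adjusted p = 6.8e-06) and was at 6.39 and 6.36 later. Piwil2, a piRNA pathway gene, rose by 0.84. Of 5 genes of DNA methylation 1 rose, the methyltransferase gene Dnmt3a (0.74), where 7.40% of all genes rose. Dnmt3l, Uhrf1, Dnmt3b and Dnmt1 did not pass.

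Of 11 imprinted genes 4 rose and 2 fell, with a median of 0.14. Phlda2, a placental growth inhibitor expressed from the maternal allele, was at 9.10, 12.22, 14.58 and 14.69 and rose by 3.13 ± 0.15 (limma, adjusted p = 9.88e-09) against 4.68. H19, a maternally expressed long noncoding RNA, rose from 12.34 to 14.62 on the row used, and a second row gave a change of 0.85. Nnat and Plagl1 rose by 1.32 and 1.05. Igf2 and Grb10 fell by 1.05 and 1.20. Igf2, a growth factor, was at 12.41 at day 0 on feeder cells against 9.07 without them, and the part of feeder fibroblasts in that level was not tested.

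Of 16 cell cycle genes 0 rose and 2 fell, with a median of -0.23, where 7.40% of all genes rose and 7.49% fell. Those 2 were Ccnd2, which encodes cyclin D2 (-1.22), and Cdkn1b, which encodes the inhibitor p27 (-0.75). Genes of retinoid handling gave 1 rise and 1 fall among 7, beside those same shares of all genes. Crabp1, a cytosolic retinoic acid binding protein, fell from 14.40 to 11.44 and went on to 8.72 and 8.76. Its change was -2.96 ± 0.19 (limma, adjusted p = 1.31e-07) against -5.16 without feeder cells. Cyp26a1, which degrades retinoic acid, rose by 0.62 against 1.76.

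**Figure D5:**
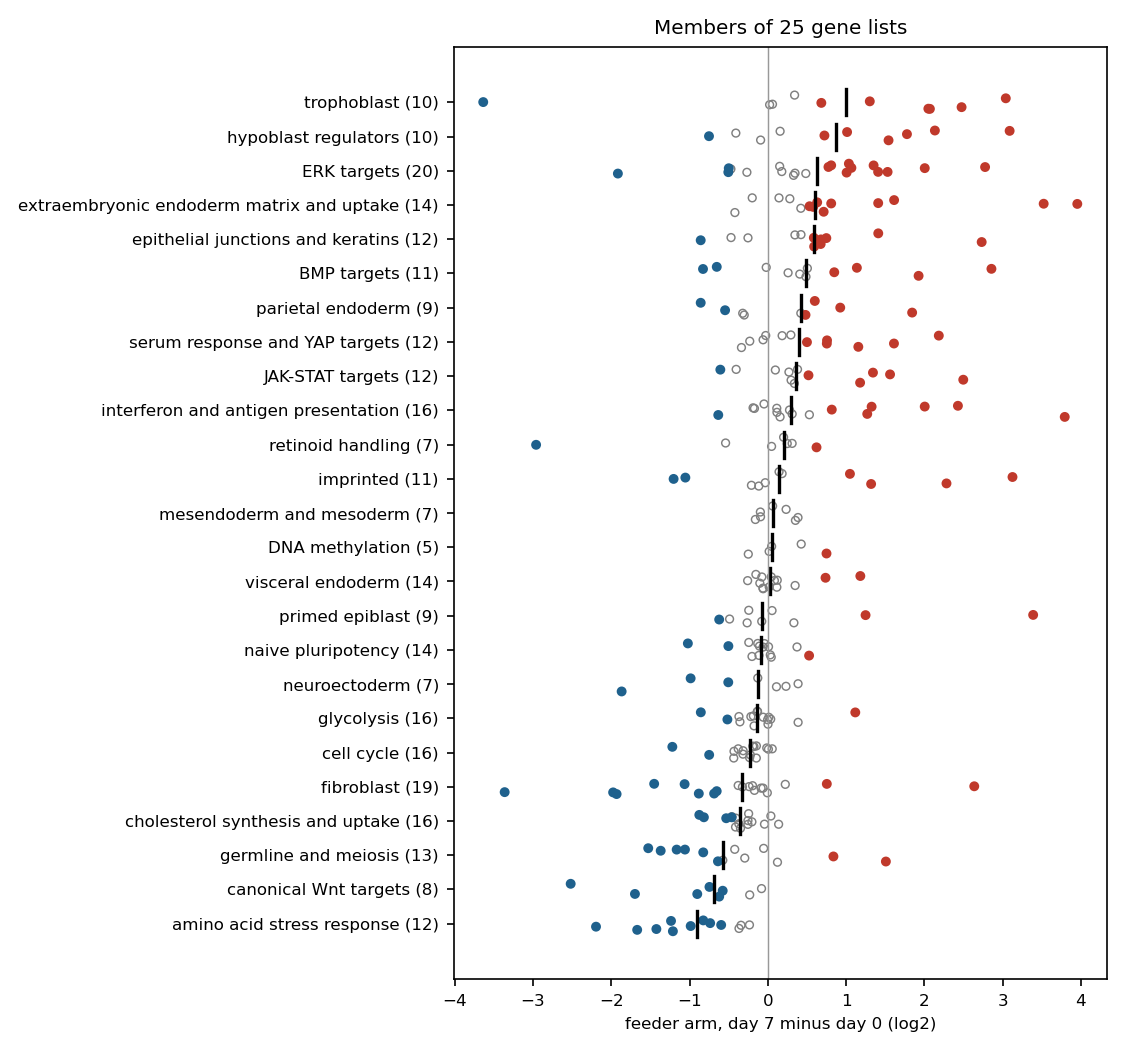
Day 7 minus day 0 in the feeder arm (horizontal, log2) for each member of 25 gene lists (vertical, ordered by median, number of measured genes in brackets); filled red and blue points rose and fell with limma at an adjusted p under 0.05, open points did not pass, and black bars are medians. The medians run from -0.90 for the amino acid stress response to 0.99 for trophoblast genes, and the vertical scatter within a list has no meaning.

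Markers of fibroblasts were examined because the day 0 feeder sample could hold mouse feeder cells, whose RNA can bind rat probes. Of 19 markers 2 rose and 8 fell, with a median of -0.32 on feeder cells and -0.05 without them. The log2 of their summed level was 15.94 at day 0 and 15.43 at day 7 on feeder cells, 15.39 and 15.64 at the later feeder days, and between 13.86 and 15.65 in the 7 feeder-free arrays. The median level of the markers was 10.21 at day 0, 9.71 at day 7, 8.94 to 8.98 at the later feeder days and 8.45 to 8.74 without feeder cells. Of the 19, Dcn, Lum, Postn, Lox and S100a4 were under the background bound in all feeder-free arrays.

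Postn, a matrix protein of fibroblasts, was at 11.79 at day 0, 8.42 at day 7, 6.66 at day 17 and 6.87 at day 32 on feeder cells, and at 7.02 or less in each feeder-free array. It fell 10.3-fold in the first week (-3.36 ± 0.15, limma, adjusted p = 9.88e-09), and the day 7 feeder array still lay above all arrays other than that of day 0. Col1a1 fell from 13.13 to 11.15 and was at 10.19 and 10.00 later, and Col1a2 fell from 11.84 to 9.90. The feeder-free day 0 levels of these collagen I genes were 9.96 and 9.33. Fbn1, Col3a1 and Prrx1 fell by 1.45, 1.06 and 0.88. Lox, at 8.62 and 8.61, and Dcn, with a change of -0.32, did not pass.

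Vim, which encodes vimentin, was at 14.57 and 14.33 on feeder cells and at 8.69, 13.66 and 13.72 in the feeder-free arrays of days 0 and 7. Its changes of -0.24 and 5.00 gave a difference of -5.24, and the arms stood further apart at day 0 than at day 7. The 2 markers that rose were Tagln, which encodes the actin-binding protein transgelin (0.75), and S100a4, which encodes a calcium-binding protein. S100a4 went from 7.47 to 10.11 and then 11.10 and 8.99, and was at 7.21 or less without feeder cells, so its first value lay under the background bound. The part of feeder cells in the falls on this arm, and in the differences from the feeder-free arm, was not tested.

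Further genes outside the lists were among the largest rises, with Car4 the highest. Car4, a membrane carbonic anhydrase, went from 8.90 to 13.13 and then 10.48 and 9.91, a rise of 18.6-fold (4.22 ± 0.15, limma, adjusted p = 3.27e-09) against 3.26 without feeder cells. Rtp3, a receptor transporter protein, went from 8.53 to 12.60 (4.07) against 1.17. Akr1c14, a hydroxysteroid dehydrogenase, rose by 3.78 against 5.25, and Il33, a nuclear alarmin cytokine, by 3.56 against 1.55, both from day 0 levels under the background bound (6.82 and 7.31). F3, the tissue factor that starts coagulation, was at 8.25, 11.47, 15.01 and 14.54 and rose by 3.22 against 5.43. Prss8, the serine protease prostasin, rose by 3.19 against 1.46.

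Of the largest falls, Cdx2, Postn, Crabp1, Pdha1 and Tnfrsf19 are described above. Mllt3, a subunit of the super elongation complex, was at 11.71, 8.62, 11.22 and 11.23 on the 4 feeder days, so that only day 7 was low. It fell 8.54-fold (-3.09 ± 0.15, limma, adjusted p = 1.49e-08) while its feeder-free change was 1.49. Ntn1, the guidance cue netrin-1, fell by 2.54, and Heph, the copper ferroxidase hephaestin, by 2.52. Plaat1, Nfasc, Aldh1b1 and Dkkl1 also fell, with changes of -2.37, -2.36, -2.34 and -2.32. For Heph, Plaat1, Aldh1b1 and Dkkl1 the feeder-free changes lay between -2.93 and -2.11, and the difference between the arms did not pass.

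The largest differences between the arms with the higher change on feeder cells were those of Car14 (5.06), Acvr1c (4.83), Cpne8 (4.81), Septin4 (4.57), Id1 (4.49) and Cga (4.45). Car14, a membrane carbonic anhydrase, rose from 8.93 to 11.22 on feeder cells and was at 12.09, 9.28 and 9.36 without them. Acvr1c, the Nodal receptor ALK7, had a feeder change of 0.58 that did not pass (limma, adjusted p = 0.0592) against -4.25. Cpne8 and Septin4 rose by 1.47 and 2.09 against -3.33 and -2.48.

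With the lower change on feeder cells, the largest differences were those of Htra1 (-6.33), Vim (-5.24), Creb3l1 (-5.18), Mmp1 (-4.70), Mllt3 (-4.59) and Sema6d (-4.59). Htra1, a secreted serine protease, was at 10.29, 10.24, 14.54 and 14.50 on feeder cells and at 7.71, 13.91 and 14.07 in the feeder-free arrays of days 0 and 7. In the feeder arm its entire increase came after day 7. Creb3l1, a factor for collagen secretion, fell by 0.85 on feeder cells against 4.32, and was at 14.09 and 14.10 on the later feeder days. Mmp1, a collagenase under the background bound at day 0, rose in both arms, from 6.51 to 9.36 on feeder cells and from 6.20 to 13.76 and 13.77 without them. Sema6d, a semaphorin, rose by 1.43 against 6.02.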

How the data were processed

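The authors deposited 1 table of log2 values, with a row per probe set. RMA is named for it in the submitters' processing notes, with no version or options. All 11 columns share a median of 8.97. RMA compresses low values, so changes of dim genes are understated, and depth has no meaning for arrays, whose number limits the precision. Of 29214 rows, 15310 had 1 gene symbol in the platform annotation, 323 several and 13581 none. For 527 genes with several rows, that of the highest mean over the 11 arrays was used, which left 14506 genes without a filter on dim ones. In RefSeq (GRCr8), 15279 gene identifiers matched.

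Groups came from the sample labels. limma 3.58.1 in R 4.3.3 fitted 8 group means with lmFit and eBayes. The 3 residual degrees of freedom all come from the feeder-free pairs, the median SE of a feeder change was 0.152, and p values were adjusted over all genes by Benjamini-Hochberg and called under 0.05. On simulated data, 200 of 14506 genes were changed. The feeder change was called for 22% of genes changed by 0.5, 96% by 1 and 100% by 2 or 4. There were 11 false calls among 170. Fewer genes were changed there than the 2160 called in the data, so its cut was stricter and these shares do not carry over. The simulated feeder arrays had the feeder-free spread, so the assumption about the feeder spread was not tested.

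The members, the 25 gene lists (296 measured genes) and the tests were chosen with earlier results of these data known. The named genes were the 12 largest rises and falls above background at their higher end, the 6 largest differences between the arms each way, up to 4 called members of a list (or the 2 largest where none passed) and 7 lineage factors always. Other list members are given to describe their list and were chosen after their values were seen. Background was the 95th percentile, 8.10, of 1240 olfactory and vomeronasal receptor genes. As alternatives, the dimmest 25% of genes were left out, or the settings were the mean of a gene's rows, all rows, a further quantile normalization, median centring, eBayes with trend and robust, a replicate block, the day 7 pair alone, an adjusted p under 0.01, a change of at least 1, and leaving out each replicated array. Figures were drawn with matplotlib 3.10.9.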

Additional observations from a re-analysis of the deposited data

Results flagged for a closer look

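The day 0 to day 7 change differed between the feeder and feeder-free arms for 3193 genes (limma, interaction, adjusted p under 0.05). That is 22.0% of all 14506 genes, and 158 of the 296 list genes were among them. The lists were chosen with earlier results of these data known. Values below are the feeder change minus the feeder-free change, on the log2 scale.

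Among genes above the background bound of 8.10 at their higher end, the 12 widest differences were Car14 (5.06), Acvr1c (4.83), Cpne8 (4.81), Septin4 (4.57), Id1 (4.49) and Cga (4.45) on the higher side, and Htra1 (-6.33), Vim (-5.24), Creb3l1 (-5.18), Mmp1 (-4.70), Mllt3 (-4.59) and Sema6d (-4.59) on the lower side. Mmp1 was under the bound at day 0 in both arms, and Htra1 and Sema6d at day 0 in the feeder-free arm. The pluripotency factors Nanog (3.66), Sox2 (2.62) and Pou5f1 (1.16) had the higher change on feeder cells. The hypoblast genes Pdgfra (-3.48), Gata6 (-1.98), Sox17 (-1.74) and Gata4 (-1.06) had the lower change there while rising in both arms.

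For 17 of the 296 list genes the change was called in opposite directions in the arms, and for 269 of all 14506 genes. Id1, given above, and Id2 (4.12) rose on feeder cells and fell without them. So did the junction genes Cdh1 (2.32), Epcam (2.10), Cldn7 (1.85) and Ocln (1.69), the germline genes Sycp3 (2.47) and Piwil2 (2.42), and Fgf4 (3.05). In the other direction, falling on feeder cells and rising without them, were Atf3 (-3.96), the galectin gene Lgals1 (-2.95), Etv4 (-2.62), Tap1 (-2.05), Igf2 (-1.80), Spry1 (-1.69), Hnf4a (-1.31) and Spred1 (-1.09). Each rests on 1 feeder array per day and 1 feeder-free array at day 0.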

How the results depend on the processing

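With a change of at least 1 required as well, the feeder change was called for 575 genes, the feeder-free change for 1786 and the difference between the arms for 1614. With an adjusted p under 0.01 the feeder count was 1283. Under all other settings the counts stayed within 1.5 times: the feeder count ran from 1870 (all rows of the table) to 2761 (trend and robust), and that of the difference from 2803 (day 7 pair alone) to 3759 (trend and robust). Leaving out each replicated array in turn gave 2156 to 2353 feeder calls and 3097 to 3340 calls of the difference. With a replicate block the counts were 2200 and 3184. The deviations of same-numbered feeder-free arrays correlated at 0.03, -0.10 and -0.19. These values cannot show whether same-numbered arrays came from 1 culture. No called change or difference of a named gene reversed its sign. The larger side of near-even splits did turn. Feeder rises and falls, 1074 and 1086, became 979 and 891 with all rows, 1341 and 1233 with quantile normalization, 946 and 930 with the day 7 pair alone, 681 and 602 at 0.01 and 345 and 230 at a change of at least 1. Higher and lower differences, 1575 and 1618, became 2169 and 1477 when centred, 1899 and 1860 with trend and robust, and 1729 and 1464 without replicate 2 of feeder-free day 7. The feeder change of listed and named genes was also compared under settings other than those of size and threshold. In 4261 comparisons the gene kept its status, whether called or not called, in 132 it gained a call and in 52 it lost one. Of the list medians 346 did not move and 4 did, all under the filter on dim genes (parietal endoderm 0.06, neuroectoderm -0.32, Wnt targets -0.82, interferon 0.82). The spread of the feeder arm itself is unknown, since each of its days has 1 array. Changes of 0.5 were often missed in a simulation with fewer changed genes than were called here.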

Other observations

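At day 7 the feeder array stood at least 1 above all 10 other arrays for 62 genes and at least 1 below them for 7, a choice made after the values were seen and given with no test of its own. Besides Cga and Lefty2, the genes above the other arrays included Hoxb13, a posterior homeobox gene, at 10.54 against 7.66 at feeder day 0, and the mucin gene Muc1 at 11.33 against 8.66. The lysophospholipase gene Enpp2, which encodes autotaxin, was at 9.72 against 7.28, Frzb, a secreted Wnt antagonist, at 11.29 against 8.32, and Spp1, which encodes osteopontin, at 12.82 against 10.83. The interferon-induced GTPase gene Gbp2, which no list holds, was at 12.27 against 9.29, with a feeder-free change of -0.31. Below all other arrays were Ica1 at 7.20, the sodium pump subunit gene Atp1b1 at 11.43, and Acss2, an acetyl-CoA synthetase, at 9.72.

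The feeder array of day 0 stood at least 1 above all 10 others for 58 genes and at least 1 below them for 26. Above were Postn, Col1a1, Col1a2, Cdx2, Etv4 and Crip1, with Aspn, a matrix proteoglycan, at 9.01 against 7.11 at feeder day 7, and Antxr1, a collagen receptor, at 10.41 against 8.55. Usp18, which removes Isg15 from proteins, was also above, at 8.22 against 6.18. Below were Gata4, Srgn, Id1 and Prss8, with Podxl, which encodes the surface sialomucin podocalyxin, at 11.50 against 13.90.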
